A study of Oryctolagus cuniculus with 4 samples.

Results

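Solute carriers are membrane proteins that move nutrients, ions, metabolites and vitamins across the plasma membrane and the membranes of organelles. The genes described here are those of the deposited table whose symbol began with SLC, followed by a family number from 1 to 24 and a letter. The rule found 152 genes, of 20294 genes in all and 13225 with a symbol. Of these, 150 encode a carrier or its subunit, and SLC7A6OS and SLC9A3R1 share only the name. SLC7A6OS lies beside a carrier gene, and SLC9A3R1 encodes a scaffold protein that binds a sodium-proton exchanger. The 152 genes had 159 transcripts, and all were annotated as protein coding.

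Poly(A) RNA came from the intact semitendinosus tendons of New Zealand White rabbits, 4 females at 193 days of age and 1 tendon from each, with no treatment or genetic change named in the labels. The semitendinosus is a hamstring tendon harvested for ligament reconstruction. The series calls the tendon a graft, and the samples are labelled intact. Muscle on its surface was scraped off with a blade before freezing, and the whole graft was ground, so that resident tendon fibroblasts (tenocytes), remaining muscle, vessels, fat and nerve were sequenced together. The tendons formed 1 group with no contrast, and the values below are levels and their spread between 4 animals. In such bulk tissue, fewer cells of a type and less RNA per cell cannot be told apart.

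In tendon, carriers supply the fibroblast with amino acids and vitamin C for collagen synthesis, bring in glucose, remove lactate from a poorly perfused tissue, and hold cell volume and pH under load. Sodium-coupled carriers draw on the gradient set by the sodium pump, while chloride cotransporters, bicarbonate carriers and proton exchangers set volume and pH. Phosphate carriers are of interest in tendon because local phosphate and pyrophosphate govern ectopic mineral.

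Libraries held between 19759696 and 30646052 estimated counts, the lowest in tendon 1, and no pair of libraries agreed within counting noise. All 9 tenocyte markers with an entry stood at or above 1 TPM, and together they took between 2.91% and 6.58% of TPM in a tendon. TPM is the abundance after correction for transcript length and library total, and levels of different genes are compared in that unit throughout. Skeletal muscle markers were also present: the 9 markers common to all fibres took 0.504%, 2.03%, 1.05% and 1.35% of TPM in tendons 1 to 4, and the 6 slow-fibre markers 0.449%, 1.63%, 0.863% and 1.03%. Fast-fibre markers reached 0.239% in tendon 4 and at most 0.00806% in the other tendons.

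Most of the family was transcribed at a low level, and a few members held much of the total. Of the 152 members, 88 had a mean of at least 1 TPM, or 57.9%, beside 63.0% of all genes and 75.4% of genes with a symbol. The lists of partner genes below were looked up by symbol, so 75.4% is also the share to set beside their counts. At least 10 TPM was reached by 37 members, or 24.3%, beside 43.0% of all genes. The median member stood at 1.37 TPM, against 5.65 TPM over all genes and 11.8 TPM over genes with a symbol. Summed over the family, the share was 0.132%, 0.116%, 0.127% and 0.124% of a tendon's TPM, which averages 0.1247% ± 0.00691 (SD, n = 4). The 10 most abundant members held 48.6% of the TPM of the family. SLC12A4 led all members but was 1276th among all genes.

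**Figure D1:**
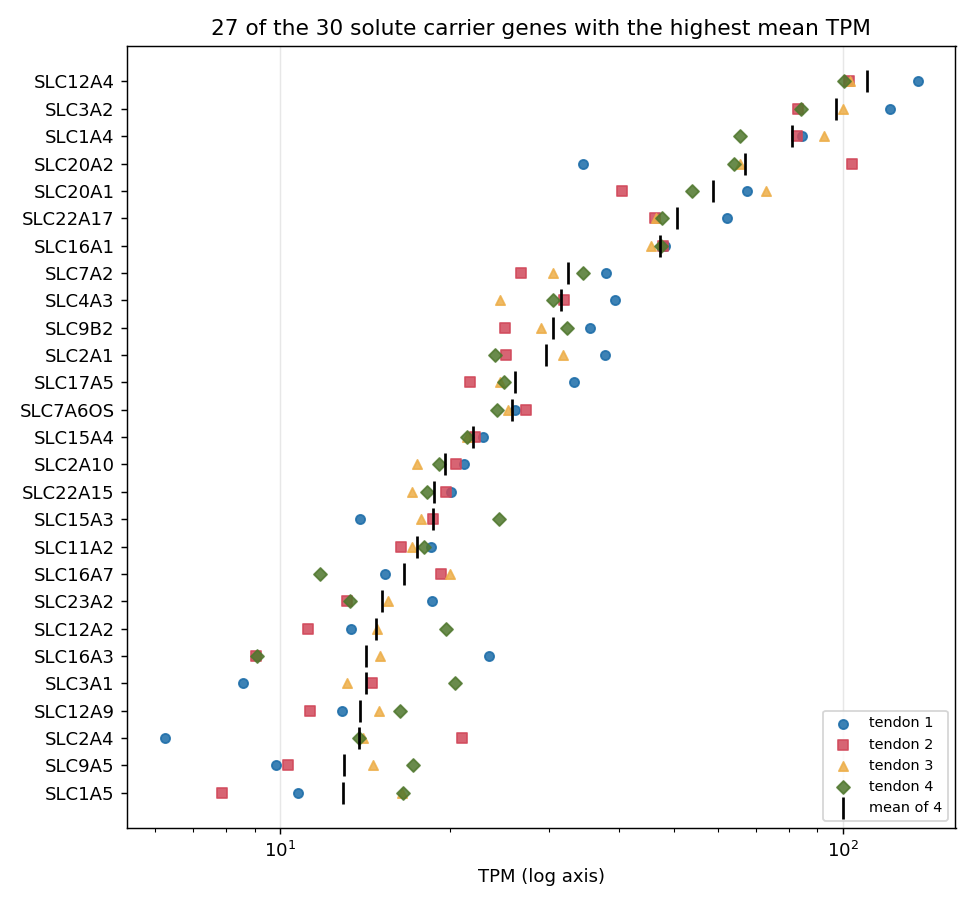
TPM (log axis) of 27 of the 30 solute carrier genes with the highest mean, by tendon, with 1 point per animal and a bar at the average. SLC12A4 lay between 100.4 and 136 TPM, the 4 points of SLC16A1 nearly coincide, and SLC20A2 and SLC2A4 were lowest in tendon 1 and highest in tendon 2.

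Amino acid carriers formed the largest class, with 28 members, of which 17 had a mean of at least 1 TPM. Their summed level was 325, 273, 328 and 297 TPM in the 4 tendons in turn. This averaged 306 ± 25.7 TPM (SD, n = 4), or 24.5% of the TPM of all members. The class was led by SLC3A2, the heavy chain CD98 that brings several SLC7 light chains to the cell surface and also binds integrins (ENSOCUG00000001334.2, OryCun2.0 scaffold GL018717, 1482660 to 1507689). SLC3A2 stood at 121, 83.0, 99.9 and 84.2 TPM in tendons 1 to 4. Its light chain SLC7A5, the carrier of large neutral amino acids, stood at 8.88, 12.9, 15.9 and 12.8 TPM. The heavy chain transcript was above that of this light chain in all 4 tendons, 13.5-fold in tendon 1 and between 6.24- and 6.52-fold in the others. SLC3A2 also serves other light chains, of which SLC7A6 reached 8.66 ± 2.21 TPM, SLC7A8 5.14 ± 1.84 TPM, SLC7A7 4.73 ± 1.84 TPM and the cystine-glutamate exchanger SLC7A11 1.44 ± 0.490 TPM (SD, n = 4). SLC7A6, SLC7A8, SLC7A7 and SLC7A11 are given for their pairing with SLC3A2 and were chosen after their values were seen.

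The second member of the class was SLC1A4, which exchanges alanine, serine, cysteine and threonine (ENSOCUG00000010821.2, chromosome 2, 121297368 to 121321126). SLC1A4 stood at 84.4, 82.6, 92.2 and 65.5 TPM, whereas the related glutamine carrier SLC1A5 stood at 10.8, 7.88, 16.5 and 16.5 TPM in tendons 1 to 4. The groups of values did not overlap, and SLC1A4 was 6.49-fold higher in TPM by geometric mean. This gap depended on length correction, as the annotated transcripts were 1227 bases for SLC1A4 and 6217 bases for SLC1A5. Counts in tendons 1 to 4 were 1035, 1733, 1733 and 1351 for SLC1A4. They were 669, 837, 1567 and 1727 for SLC1A5, which was the higher in tendon 4. SLC7A2, a carrier of arginine and other cationic amino acids, stood at 37.9, 26.8, 30.6 and 34.5 TPM. SLC3A1, the heavy chain of the kidney cystine transporter, had 14.2 ± 4.90 TPM (SD, n = 4). The SLC3A1 gene overlaps PREPL on the opposite strand, which had 38.1 TPM. Use of strand in counting is not given in the sources used here, so reads of SLC3A1 and PREPL cannot be told apart where their exons overlap. Among enzymes that use the imported amino acids, all 10 with an entry of a list on glutamine, glutamate and glutathione had at least 1 TPM, led by the glutamine synthetase gene GLUL at 206 ± 27.1 TPM.

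Cation-chloride cotransporters were next, with 8 members summing to 163 ± 18.9 TPM (SD, n = 4). SLC12A4 (KCC1), which lets potassium and chloride leave the swollen cell, took 67.7% of the class (ENSOCUG00000006350.2, chromosome 5, 23506663 to 23528006). It stood at 136, 102, 103 and 100.4 TPM in tendons 1 to 4, high in tendon 1 and nearly equal in the others in that unit. On the scale used below for spread between animals, TMM-scaled CPM, it fell from tendon 1 to tendon 4, at 265, 230, 207 and 196. The importer SLC12A2 (NKCC1), which loads the cell with sodium, potassium and chloride, stood at 13.4, 11.2, 14.9 and 19.7 TPM, highest in tendon 4. SLC12A4 exceeded SLC12A2 in all 4 tendons, 7.51-fold by geometric mean. SLC12A9, a relative of unclear transport, had 13.9 ± 2.22 TPM (SD, n = 4). Of the listed partners in volume control, all 8 with an entry had at least 1 TPM, beside 75.4% of genes with a symbol. They were led by LRRC8A, a subunit of the volume-regulated anion channel, at 104 ± 21.6 TPM, and the kinase gene WNK1 at 91.3 ± 19.2 TPM.

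Phosphate carriers followed at 128 ± 19.0 TPM (SD, n = 4), nearly all from SLC20A2 and SLC20A1, the sodium-phosphate cotransporters PiT2 and PiT1. SLC20A2 stood at 34.5, 104, 65.5 and 63.9 TPM in tendons 1 to 4 (ENSOCUG00000015421.3, scaffold GL018706, 846246 to 885980). SLC20A1 stood at 67.6, 40.5, 72.8 and 54.0 TPM (ENSOCUG00000001772.3, chromosome 2, 97393531 to 97455658). The order of this pair differed between animals, with SLC20A1 1.95-fold and 1.11-fold above SLC20A2 in tendons 1 and 3 and 0.390 and 0.845 times SLC20A2 in tendons 2 and 4. The mean log2 ratio of SLC20A1 to SLC20A2 was -0.12 ± 0.97 (SD, n = 4; exact two-sided sign-flip permutation test, p = 0.75, adjusted p = 0.75), and without tendon 2 it turned to 0.29. The other 8 members of the class were low, led by the sulphate carrier SLC13A4 at 1.57 ± 0.266 TPM. Of the 9 other phosphate and pyrophosphate genes listed, 4 had at least 1 TPM. They were led by ANKH, which raises pyrophosphate outside the cell, at 297 ± 62.1 TPM, and by NT5E, whose enzyme makes adenosine outside the cell, at 116 ± 35.0 TPM.

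**Figure D2:**
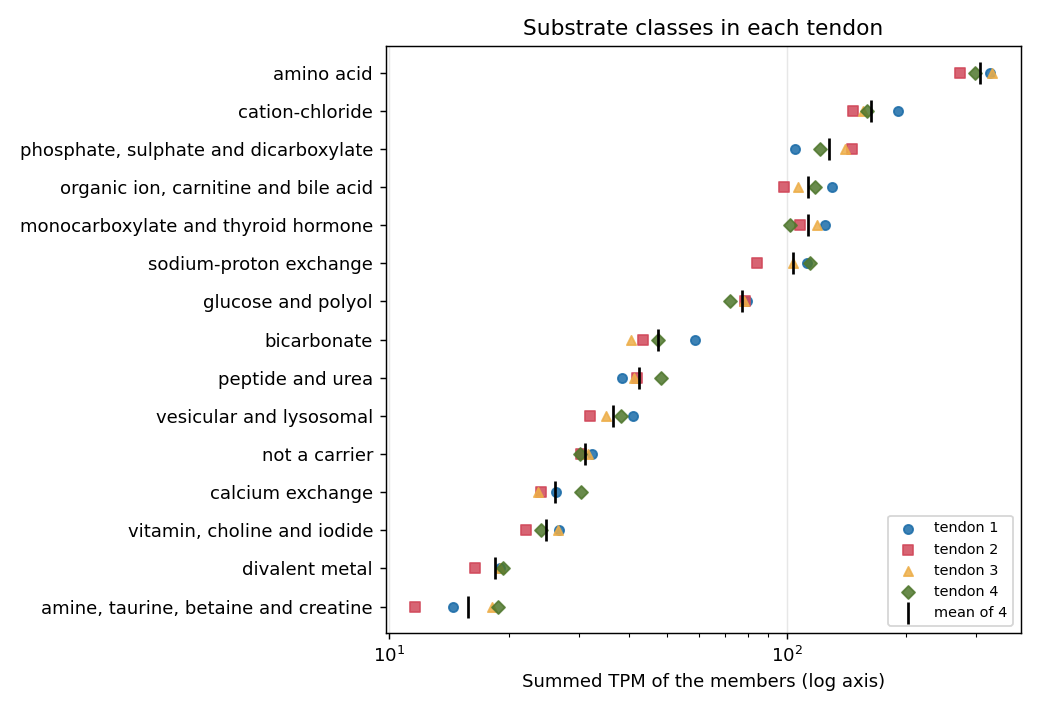
Summed TPM (log axis) of the members of each substrate class by tendon, with 1 point per animal and a bar at the average. Amino acid carriers were highest and cation-chloride cotransporters second in all 4 tendons, and glucose and polyol carriers lay between 72.0 and 79.5 TPM. In tendon 2 cation-chloride cotransporters were nearly level with phosphate, sulphate and dicarboxylate carriers, at 146.6 against 146.3 TPM.

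Among carriers of lactate, pyruvate and thyroid hormone, 13 members summed to 113 ± 10.2 TPM (SD, n = 4). SLC16A1 (MCT1), the widely expressed lactate carrier, stood at 48.2, 47.9, 45.6 and 47.5 TPM in tendons 1 to 4 (ENSOCUG00000016776.3, chromosome 13, 51249967 to 51266685). In TPM the 4 tendons were nearly equal, with a coefficient of variation of 2.48%. On TMM-scaled CPM, SLC16A1 stood at 106, 120, 103 and 104, highest in tendon 2. SLC16A3 (MCT4), which exports lactate from strongly glycolytic cells, stood at 23.5, 9.06, 15.0 and 9.10 TPM, highest in tendon 1. SLC16A1 was above SLC16A3 in all 4 tendons, by between 2.05- and 5.24-fold. SLC16A7 (MCT2) had 16.6 ± 3.83 TPM. An entry was found for 4 of 6 listed chaperones and lactate enzymes, among them NPTN at 99.1 ± 6.61 TPM and LDHB at 279 ± 45.9 TPM, while BSG and LDHA had none under those symbols.

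Glucose and polyol carriers had 14 members, of which 7 had a mean of at least 1 TPM, and summed to 77.1 ± 3.43 TPM (SD, n = 4). SLC2A1 (GLUT1), the basal glucose carrier of many cells, stood at 37.8, 25.1, 31.8 and 24.04 TPM in tendons 1 to 4 (ENSOCUG00000005924.3, chromosome 13, 123854794 to 123862841). SLC2A4 (GLUT4), the insulin-responsive carrier of muscle and fat, stood at 6.24, 21.0, 14.0 and 13.8 TPM (ENSOCUG00000015240.3, chromosome 19, 11860908 to 11867560). SLC2A1 was above SLC2A4 in TPM in every tendon, 5.98-fold in tendon 1 but 1.19-fold in tendon 2. In counts, without length correction, SLC2A4 was the higher in tendon 2, at 1327 against 1000. SLC2A10 (GLUT10), whose loss in people causes tortuous arteries and lax connective tissue, had 21.2, 20.6, 17.5 and 19.1 TPM. SLC2A3 had no entry under that symbol, so its ratio to SLC2A1 was not computed, which does not show absence. Of 8 listed genes of glucose phosphorylation and GLUT4 traffic with an entry, 6 had at least 1 TPM, led by TXNIP at 328 ± 89.6 TPM and the hexokinase gene HK1 at 46.5 ± 3.07 TPM.

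Carriers of sodium, protons, bicarbonate and calcium formed 3 further classes. Sodium-proton exchangers summed to 104 ± 13.7 TPM (SD, n = 4) over 13 members, of which 10 had at least 1 TPM. SLC9B2 (NHA2) led them with 35.5, 25.1, 29.1 and 32.3 TPM in tendons 1 to 4. SLC9A5 had 12.99 ± 3.53 TPM. Bicarbonate carriers summed to 47.6 ± 8.01 TPM, of which SLC4A3 (AE3), a chloride-bicarbonate exchanger best known from heart and brain, took 66.3%. SLC4A3 stood at 39.3, 31.9, 24.5 and 30.5 TPM, and the sodium-bicarbonate cotransporters SLC4A7 and SLC4A4 at 10.9 ± 2.77 and 1.29 ± 0.523 TPM. The red cell carrier SLC4A1, one of the erythroid markers, had 0.540 TPM. Of 10 carbonic anhydrase genes, which interconvert carbon dioxide and bicarbonate, 7 had at least 1 TPM, led by CA3, abundant in slow muscle and fat, at 2203 ± 793 TPM and the mitochondrial CA5B at 225 ± 46.4 TPM.

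Calcium exchangers were low, at 26.1 ± 3.05 TPM (SD, n = 4) over 6 members. SLC8B1, the sodium-calcium exchanger of the inner mitochondrial membrane, stood at 7.70, 7.70, 7.82 and 9.27 TPM in tendons 1 to 4. The potassium-dependent exchanger SLC24A3 stood at 7.36, 6.85, 3.74 and 7.34 TPM, low in tendon 3. SLC8A3, an exchanger of muscle and brain, stood at 2.59, 4.96, 5.05 and 6.63 TPM, lowest in tendon 1. SLC24A5, known from melanosomes, had 5.56 ± 1.99 TPM, but its gene overlaps MYEF2, at 21.7 TPM, on the opposite strand. SLC8A1, the exchanger of heart muscle, had no entry under that symbol. The sodium pump, on whose gradient many of these exchangers depend, was represented by 9 genes with an entry, 8 of them at or above 1 TPM, led by its regulator FXYD1 at 546 ± 71.9 TPM.

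Organic ion, carnitine and bile acid carriers summed to 113 ± 13.6 TPM (SD, n = 4) over 18 members. SLC22A17, described as a receptor for lipocalin 2, took 44.6% of the class with 62.1, 46.2, 46.4 and 47.6 TPM in tendons 1 to 4 (ENSOCUG00000016897.3, chromosome 17, 43541516 to 43546658). SLC22A15 followed at 18.8 ± 1.38 TPM. The carnitine carrier SLC22A5 (OCTN2) stood at 2.45, 3.06, 1.90 and 3.84 TPM. Its neighbour SLC22A4 (OCTN1) stood at 2.13, 0.394, 1.40 and 2.18 TPM. The values overlapped between the genes, although SLC22A5 was higher in TPM in each tendon. The carnitine shuttle genes CPT1B and CRAT had 21.98 ± 4.73 and 18.9 ± 3.62 TPM, and all 4 with an entry had at least 1 TPM. SLC10A1, the bile salt carrier of the liver, had 10.5 ± 2.91 TPM and overlaps SRSF5, at 34.7 TPM, on the opposite strand. In all, 14 members overlap another gene in their genomic span, all on the opposite strand, and 6 of them are named by the rule for named genes.

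Vitamin carriers were few. Ascorbate is a cofactor of the enzymes that hydroxylate procollagen. Its carrier SLC23A2 (SVCT2) stood at 18.6, 13.1, 15.5 and 13.3 TPM in tendons 1 to 4 (ENSOCUG00000006637.3, chromosome 4, 11498187 to 11574333). The epithelial form SLC23A1 (SVCT1) stood at 0.330, 0.161, 0.646 and 0.196 TPM, from between 5 and 18 counts, and SLC23A2 was between 21.0- and 50.8-fold above it. SLC5A6, the carrier of biotin and pantothenate, had 7.45 ± 1.31 TPM (SD, n = 4), beside an overlapping gene without a symbol at 75.1 TPM, and the thiamine carrier SLC19A2 had 1.87 ± 0.119 TPM.

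The 2 metal carriers, SLC11A2 and SLC11A1, differed widely in level. SLC11A2 (DMT1), the endosomal iron carrier of most cells, stood at 18.5, 16.3, 17.1 and 18.0 TPM in tendons 1 to 4. SLC11A1 (NRAMP1), the phagosomal metal carrier of macrophages, stood at 0.458, 0.0803, 1.82 and 1.31 TPM, from 10, 3, 61 and 48 counts. The 8 macrophage markers took 0.00875%, 0.00705%, 0.0168% and 0.0218% of TPM, and the part of macrophages in the values of SLC11A1 was not tested. Of 7 listed iron genes with an entry, 6 had at least 1 TPM, led by the ferritin gene FTL at 1667 ± 157 TPM and the ferric reductase gene CYBRD1 at 690.1 ± 164 TPM.

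Lysosomal carriers were the main members of the remaining classes. SLC17A5 (sialin), which exports sialic acid from lysosomes, had 26.1 ± 4.97 TPM (SD, n = 4), and the vesicular carrier SLC18B1 10.3 ± 2.08 TPM. The lysosomal histidine and peptide carriers SLC15A4 and SLC15A3 had 21.995 ± 0.691 and 18.7 ± 4.39 TPM. SLC15A3 was lowest in tendon 1, at 13.9 TPM, and highest in tendon 4, at 24.5 TPM, and overlaps TMEM132A, at 13.2 TPM, on the opposite strand. SLC15A2, a peptide carrier of epithelia, stood at 1.19 ± 0.361 TPM. Carriers of amines, taurine and creatine summed to 15.7 ± 3.37 TPM, of which the taurine carrier SLC6A6 took 68.0%. SLC6A6 stood at 9.25, 6.46, 13.7 and 13.4 TPM, the creatine carrier SLC16A12 at 1.11 ± 0.648 TPM and the noradrenaline carrier SLC6A2 at 1.80 ± 0.853 TPM. SLC6A16, whose substrate is unknown, formed a class of its own at 0.136 ± 0.117 TPM and is named here although outside the rule for named genes, chosen after its value was seen. Of the 2 genes that are not carriers, SLC7A6OS had 25.8 ± 1.30 TPM and SLC9A3R1 5.33 ± 1.60 TPM. All 4 creatine enzyme genes with an entry had at least 1 TPM, led by CKM of muscle at 746 ± 502 TPM and CKB at 182 ± 24.9 TPM.

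At the other end, 64 members had a mean under 1 TPM, and 11 had 0 counts in all 4 tendons. The 11 genes at 0 were SLC2A2, SLC2A7, SLC5A4, SLC5A7, SLC7A13, SLC9A3, SLC15A5, SLC17A2, SLC17A8, SLC18A1 and SLC18A3. These 11, like SLC12A9 and SLC4A1 above, were outside the rule for named genes and were chosen after their values were seen. They include the hepatic glucose carrier SLC2A2, the renal and intestinal exchanger SLC9A3, the choline carrier SLC5A7 and the vesicular acetylcholine carrier SLC18A3 of cholinergic neurons. A count of 0 allows up to 3 counts per library, which corresponded to between 0.105 and 0.180 TPM for SLC2A2 and between 0.113 and 0.194 TPM for SLC18A3, for counting error alone. A further 42 of 194 listed symbols of these families had no entry, among them the creatine carrier SLC6A8, the inositol carrier SLC5A3 and the folate carrier SLC19A1, and their levels were not analysed here.

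Levels of 10 pairs of carriers, which share a substrate, a complex or a family, were set against each other within each tendon, with 0.1 TPM added before the ratio. Of these, 9 are given here. In 8 of the 9 the same gene was higher in TPM in all 4 tendons. In counts, without length correction, the order turned in some tendons. SLC1A5 was above SLC1A4 in tendon 4, SLC2A4 above SLC2A1 in tendon 2, and SLC22A4 above SLC22A5 in tendons 1 and 3. The widest gaps were SLC23A2 over SLC23A1 (38.0-fold by geometric mean; mean log2 ratio 5.25 ± 0.58, SD, n = 4) and SLC11A2 over SLC11A1 (24.3-fold; 4.60 ± 1.50). The gap of SLC3A2 over SLC7A5 was 7.69-fold, that of SLC16A1 over SLC16A3 3.60-fold, that of SLC2A1 over SLC2A4 2.30-fold and that of SLC22A5 over SLC22A4 2.03-fold. With 4 tendons the exact permutation test by sign flips, two-sided, cannot give a p under 0.05. These 8 pairs had its smallest value (adjusted p = 0.139 over 10 pairs, exact permutation).

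**Figure D3:**
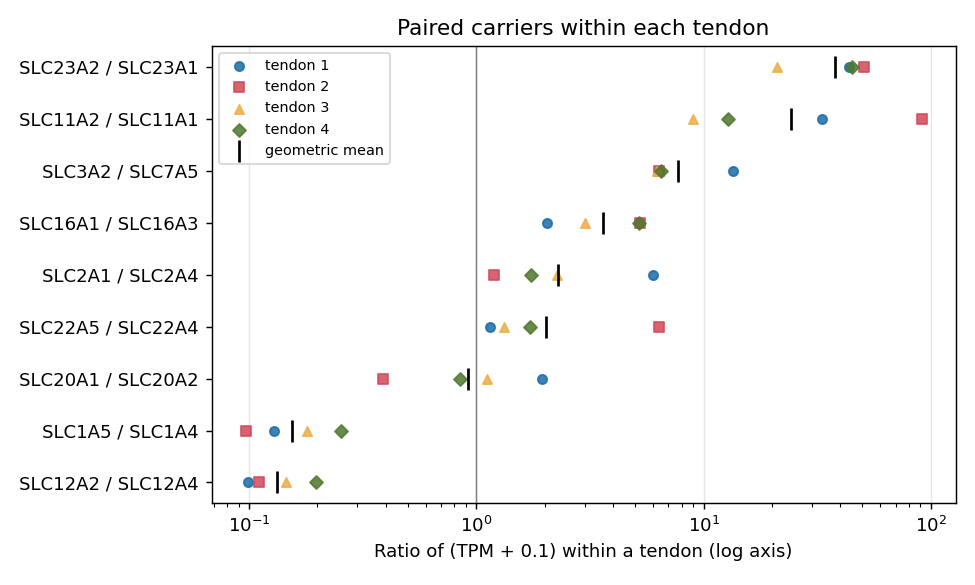
Ratio of TPM + 0.1 between paired carriers within each tendon (points, log axis), with the geometric mean of 4 as a bar and a grey line at equal levels. SLC20A1 / SLC20A2 is the 1 pair with points on both sides of the line, from 0.390 in tendon 2 to 1.95 in tendon 1.

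Spread between animals was measured on CPM, counts scaled to the library total without length correction, after scaling by TMM, a normalization over all genes, among 60 members with a mean of at least 5 CPM. The highest tendon was at least 2 times the lowest in 14 of the 60 members, or 23.3%, beside 11.6% of all 10410 genes tested. It was at least 4 times the lowest in 1 member, SLC9A2, or 1.67%, beside 2.47% of all genes. SLC9A2 was under 4 times without tendon 1, without tendon 4, and in TPM with 0.5 added. On this scale the median gene of tendon 2 lay 0.02 above its mean over the tendons in log2, against -0.12 in TPM. The median ratio of highest to lowest tendon was 1.54 in members and 1.34 over all genes. Members tested were less abundant, with a median of 18.6 CPM against 30.3 CPM over all genes tested, and the part of the lower level in the spread was not tested. The median biological coefficient of variation, the spread between animals beyond counting error as estimated by edgeR, was 0.275 for 94 members and 0.205 for 12710 genes.

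Tendon 1 was often at 1 end of these ranges, in carriers and in other genes. In 13 of the 14 members with a 2-fold range, tendon 1 was the lowest or the highest, as in 73.9% of all genes with such a range. It was the lowest in 8 members (52.3% of those genes) and the highest in 5 (21.6%). Without tendon 1, 1 of 60 members, SLC6A2, had a 2-fold range, beside 6.36% of all genes. The count was 10 of 60 without tendon 2 (9.0% of all genes), 11 of 59 without tendon 3 (10%) and 11 of 59 without tendon 4 (7.57%). Tendon 1 had the fewest counts and the lowest share of muscle markers. Tendon 1 was the highest for 36.7% of the 60 members (32.3% of all genes), tendon 2 for 12 of 60 (32.6% of all genes), tendon 3 for 18.3% (15.6%) and tendon 4 for 25.0% (19.5%). Tendons 1, 2 and 4 were each the lowest for 28.3% of members, beside 31.1%, 21.7% and 30.4% of all genes, and tendon 3 for 9 of 60, beside 16.9%. Tendon 1 was highest and tendon 2 lowest for 9 of 60 members, beside 11.3% of all genes.

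**Figure D4:**
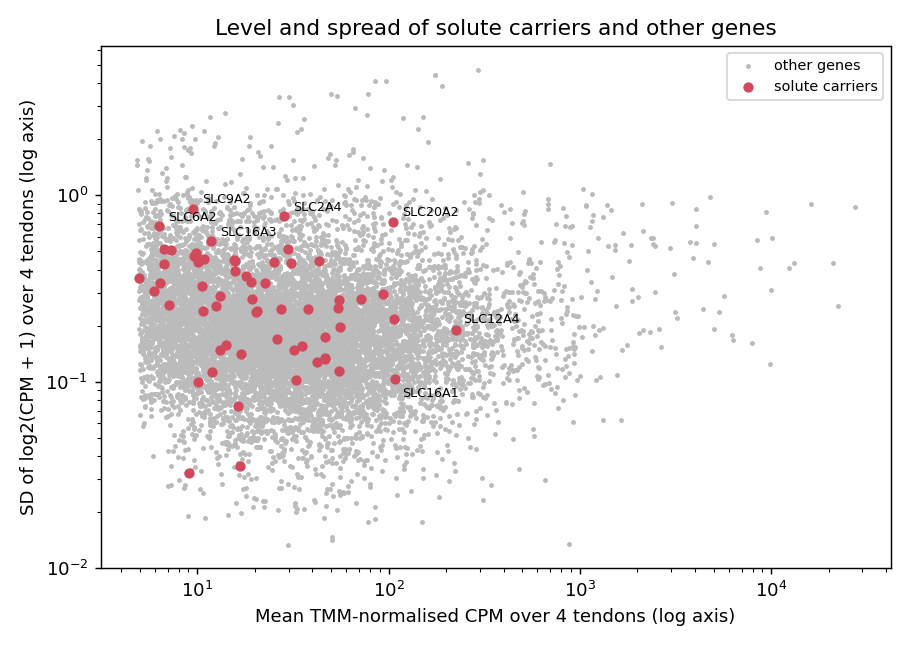
SD of log2(CPM + 1) over 4 tendons against mean TMM-normalised CPM (both log axes) for solute carriers (red) and other genes (grey) with a mean of at least 5 CPM. SLC9A2, SLC2A4, SLC20A2, SLC6A2 and SLC16A3 had the largest SD among the carriers, and SLC16A1 had an SD of 0.10.

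The 10 members with the largest SD fell into several patterns over the tendons. SLC9A2, an epithelial sodium-proton exchanger, had the largest SD, 0.85, with 0.917, 2.48, 2.58 and 4.60 TPM in tendons 1 to 4. SLC2A4 (SD 0.77) and SLC20A2 (SD 0.72) were both lowest in tendon 1 and highest in tendon 2, the tendons with the lowest and the highest share of slow-fibre and common muscle markers. On TMM-scaled CPM with 0.5 added, tendon 2 was 3.43 times tendon 1 for SLC20A2 and 3.76 times for SLC2A4. ACTA1, the skeletal muscle actin that led the common list, stood at 2925, 13182, 6218 and 7864 TPM in tendons 1 to 4. All genes of the common and slow-fibre lists were lowest in tendon 1. DES, NEB and XIRP1 of the common list and CASQ2 of the slow-fibre list were highest in tendon 4, the others in tendon 2. Over all 60 members, 3 were lowest in tendon 1 and highest in tendon 2, beside 15.7% of all genes; the third was SLC22A23 with 3.18, 5.51, 3.18 and 5.78 TPM, which in TPM was highest in tendon 4. The part of muscle in these values was not tested.

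SLC3A1 and SLC8A3 were, like SLC9A2, lowest in tendon 1 and highest in tendon 4, at 8.59 and 20.5 TPM for SLC3A1 and at 2.59 and 6.63 TPM for SLC8A3. Tendon 4 had the highest share of fast-fibre markers, at 0.239% of TPM against at most 0.00806% in the others, and also of adipocyte and macrophage markers. The part of these cells in the values of SLC3A1, SLC8A3 and SLC9A2 was not tested. The opposite order was seen for SLC16A3, whose CPM with 0.5 added was 2.48 times as high in tendon 1 as in tendon 4, and for SLC6A17, a vesicular amino acid carrier of neurons, with 10.3, 5.45, 5.34 and 4.22 TPM. Schwann cell and nerve markers were likewise highest in tendon 1, at 0.0327% of TPM, and lowest in tendon 4, at 0.0238%. SLC10A2, the bile acid carrier of the ileum, stood at 4.33, 1.37, 2.43 and 2.54 TPM. SLC6A2, which takes noradrenaline back into sympathetic nerve endings, stood at 2.21, 2.77, 1.34 and 0.875 TPM from 140, 300, 130 and 93 counts, and was highest in tendon 2 and lowest in tendon 4.

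Among members with a mean of at least 1 CPM, 3 of 91 had a range of at least 4-fold, beside 3.0% of all genes. They were SLC9A2, SLC11A1 and SLC7A10. SLC7A10, a neutral amino acid carrier of white adipocytes, was outside the rule for named genes and was chosen after its values were seen. It had 0.141, 0.288, 1.56 and 3.99 TPM in tendons 1 to 4, from 2, 7, 34 and 95.4 counts. The 5 adipocyte markers with an entry together took 0.0216%, 0.0307%, 0.0452% and 0.0727% of TPM in the same tendons, the same order. ADIPOQ, FABP4 and CIDEC each followed that order, whereas LIPE and LEP were lowest in tendon 2, at 2.94 and 0.707 TPM. The part of fat in the values of SLC7A10 was not tested.

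**Figure D5:**
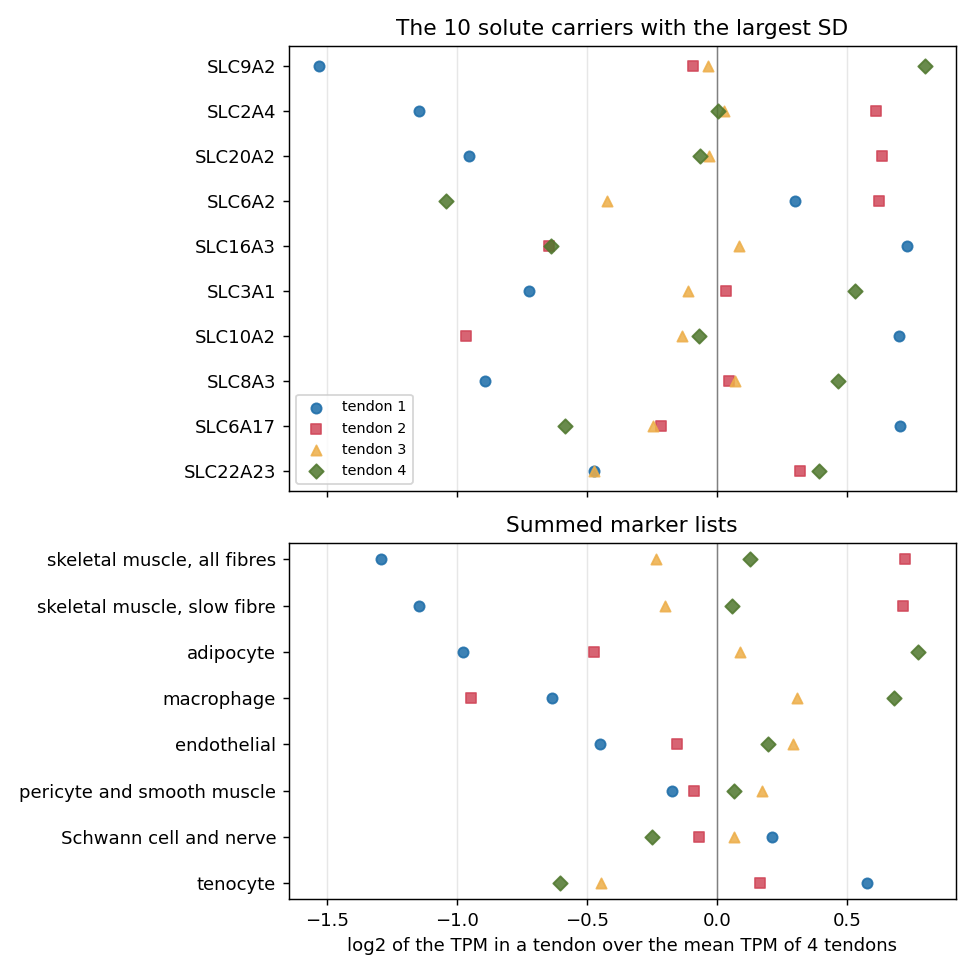
The log2 of TPM in each tendon over the mean of 4 tendons, for the 10 solute carriers with the largest SD (top) and for summed cell type marker lists (bottom). SLC2A4 and SLC20A2 were lowest in tendon 1 and highest in tendon 2, as were both muscle lists shown, and adipocyte and macrophage markers were highest in tendon 4.

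Other carriers differed less between the animals than the median gene, whose highest tendon was 1.34 times the lowest, against 1.54 times in the median member. Among the named genes, for example, the highest tendon was 1.06 times the lowest for SLC11A2, 1.17 times for SLC16A1, 1.18 times for SLC15A4, and 1.20 times for SLC8B1. For both SLC7A2 and SLC9B2 it was 1.23 times the lowest.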

How the data were processed

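RNA-seq values of 4 tendons were analysed. The authors deposited estimated counts per transcript, not scaled, 1 column per tendon, beside symbol, identifier, coordinates and length in bases, per the file headers; the length, the other deposited number, was used for TPM. Kallisto 0.42.4, bcl2fastq, FastQC and OryCun2.0 are named in the submitters' processing notes without roles; strand and filters are not given in the sources used here. TPM were computed from counts and annotated lengths over all transcripts and summed per gene. For the spread, edgeR 4.0.16 under R 4.3.3 took the counts as whole numbers, after rounding, with TMM scaling and no term but the intercept, keeping genes that reached 1 CPM in 2 or more tendons; DESeq2 1.42.0 size factors were an alternative. The range count used a mean of at least 5 CPM with 0.5 CPM added. A count of 3 equals between 0.0979 and 0.152 CPM, for counting error only. Ratios were tested by exact sign-flip permutation with Benjamini-Hochberg adjustment; 2 of 12 pairs lacked an entry. Replicates are separate animals, so p-values refer to the agreement of the ratios between animals. The sign-flip permutation p with 4 tendons is 0.125 whenever all 4 log ratios share a sign, whatever their spread. Alternatives covered length correction, TPM denominator, scaling, filters, added constants and leaving out each tendon. Scripts were tested on simulated data. Named genes were the 20 members highest in TPM, up to 3 per class with at least 1 TPM, 10 by SD of log2(CPM + 1) from those of 5 CPM or more, the genes of the pairs, up to 2 partner genes per list, members behind a count of 5 or fewer and those with a tendon apart. Members and lists were chosen with earlier results of these data known. The other steps ran in Python 3.11.15 (scipy 1.17.1, pandas 2.3.3, numpy 2.4.6). No carrier sequences were used here. A few listed genes and 1 pair are not reported here, but stayed in the sums, counts and adjustment.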

Additional observations from a re-analysis of the deposited data

Results flagged for a closer look

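A tendon stood apart from the other 3, by Dixon's ratio above its critical value for 4 samples, in 8 of 82 values tested (gene levels in TPM, class shares and log ratios), where chance gives about 4.1. SLC12A4 (0.937) and SLC22A17 (0.916) were highest in tendon 1, at 136 and 62.1 TPM, SLC8B1 (0.923) was highest in tendon 4, SLC24A3 (0.860) was lowest in tendon 3 at 3.74 TPM, and SLC9A3R1 (0.935) was lowest in tendon 2 at 2.93 TPM. On log2(CPM + 1) with TMM scaling, SLC24A3 (0.900) and SLC9A3R1 (0.886) still passed, and SLC12A4 (0.471), SLC22A17 (0.587) and SLC8B1 (0.266) did not. Only the genes flagged in TPM were tested again on this scale, so genes apart on it alone were not sought. The share of glucose and polyol carriers (0.837) was lowest in tendon 4, at 0.00720% against 0.00783% to 0.00795% elsewhere. The share of SLC11A2 and SLC11A1 together (0.879) was lowest in tendon 2, and the log ratio of SLC3A2 to SLC7A5 (0.943) was highest in tendon 1.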

How the results depend on the processing

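No paired analysis was possible because the tendons form 1 group. Amino acid carriers stayed first and cation-chloride cotransporters second among classes on the mean of 4 tendons in each setting run. The same held in each single tendon in TPM, the 1 unit in which single tendons were ranked. In tendon 2 the second place was nearly shared with phosphate, sulphate and dicarboxylate carriers, at 146.6 against 146.3 TPM. Of the 10 members highest in TPM, 7 were also among the 10 highest by CPM. With CPM in place of TPM, the shares became 0.199% (all members), 0.0385% (amino acid), 0.0356% (cation-chloride), 0.0205% (phosphate or sulphate and dicarboxylate), 0.0170% (organic ion or carnitine and bile acid), 0.0207% (monocarboxylate and thyroid hormone), 0.0159% (sodium-proton exchange), 0.0105% (glucose and polyol), 0.0101% (bicarbonate), 0.00590% (peptide and urea), 0.00452% (vesicular and lysosomal), 0.00162% (not a carrier), 0.00525% (calcium exchange), 0.00725% (vitamin or choline and iodide) and 0.00417% (amine or taurine or betaine and creatine). Without the 13 mitochondrially encoded genes they became 0.141% (all members), 0.0345% (amino acid), 0.0184% (cation-chloride), 0.0128% (organic ion or carnitine and bile acid), 0.0128% (monocarboxylate and thyroid hormone), 0.00870% (glucose and polyol), 0.00481% (peptide and urea), 0.00413% (vesicular and lysosomal), 0.00351% (not a carrier), 0.00295% (calcium exchange), 0.00281% (vitamin or choline and iodide) and 0.00208% (divalent metal). With effective length (200 bases shorter, at least 100) they became 0.102% (all members), 0.0255% (amino acid), 0.0128% (cation-chloride), 0.0103% (phosphate or sulphate and dicarboxylate), 0.00926% (organic ion or carnitine and bile acid), 0.00912% (monocarboxylate and thyroid hormone), 0.00842% (sodium-proton exchange), 0.00640% (glucose and polyol), 0.00374% (bicarbonate), 0.00344% (peptide and urea), 0.00304% (vesicular and lysosomal), 0.00294% (not a carrier), 0.00206% (calcium exchange), 0.00193% (vitamin or choline and iodide), 0.00155% (divalent metal) and 0.00123% (amine or taurine or betaine and creatine). The count of members with a 2-fold range, 14 of 60, became 27 of 91 with a mean of at least 1 CPM (15.4% of all genes), 34 of 141 with no filter (13.8%) and 8 of 48 with a mean of at least 10 CPM (9.66%); it lay between 1 (without tendon 1, 6.36%) and 11 (without tendon 3, 10%, or tendon 4, 7.57%) when each tendon was left out. The count with a 4-fold range, 1 of 60, became 3 of 91 with a mean of at least 1 CPM (3.0% of all genes), 3 of 141 with no filter (2.35%), 0 of 48 with a mean of at least 10 CPM (1.97%) and 0 of 60 in TPM (2.22%); it lay between 0 (without tendon 1, 1.18%, or tendon 4, 1.22%) and 1 (without tendon 2, 1.75%, or tendon 3, 2.35%) when each tendon was left out. The mean log2 ratio of SLC20A1 to SLC20A2 lay between -0.48 (without tendon 1) and 0.29 (without tendon 2) when each tendon was left out. The cause of these changes was not tested. Members with a mean of at least 1 TPM, 88, numbered between 82 and 90 when each tendon was left out, and 68 reached 1 TPM in all 4 tendons; 101 had a mean of at least 0.5 TPM, 67 of at least 2 TPM and 91 of at least 1 CPM. The median biological coefficient of variation lay between 0.211 and 0.357 and exceeded that of all genes in each setting. Members under a few counts per library, and carriers without an entry, could not be ranked at this depth.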
